A study of Mus musculus with 10 samples.

Results

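The promoters described here are those of the nuclear genes of oxidative phosphorylation, the respiratory chain and ATP synthase of mitochondria. A gene was a member when it is protein-coding, its symbol begins with Nduf, Uqcr or Atp5, with Sdh followed by a to d, or with Cox4 to Cox8, and a deposited promoter window off the mitochondrial genome was centred within 200 bp of its start in the mouse genome (mm10). The reference annotation held 100 such genes, and 93 of them had 176 windows, out of 49668 nuclear windows listed for any group. For 92 genes a window was listed for every group (175 windows, out of 40537), and 1 window per gene was described, that with the most data in the thinnest group. Cox6a2 had a window in 2 of the 3 groups. Genes without a window, among them Ndufb1, Ndufb4b, Ndufb4c, Ndufa4l2, Sdhaf1 and Cox4i2, were not analysed here. The members comprised 44 genes of complex I, 7 of complex II, 8 of complex III, 16 of complex IV and 17 of ATP synthase (complex V). The prefixes also take in assembly factors of complexes I and II, and Cox7a2l, which is a factor of respiratory supercomplexes.

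DNA methylation was measured by low-input bisulfite sequencing in oocytes arrested at metaphase of the second meiotic division (MII), the mature egg before fertilisation, of mice of the C57BL6/129 background. The libraries formed 3 groups: 4 were of wild-type females aged 2 months (called young WT), 3 of wild-type females aged 11 months (old WT) and 3 of Tet2 knockout females aged 2 months (Tet2KO). Every list of 3 values below is in that order. Tet2 is an enzyme that oxidises methylcytosine, and bisulfite reads methylcytosine and its hydroxymethyl product alike. The labels give no allele or Cre driver for the knockout, and they differ on whether a library held a single oocyte or 10.

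In the respiratory chain, complex I takes electrons from NADH and complex II from succinate, complex III passes them to cytochrome c, and complex IV to oxygen. Complexes I, III and IV pump protons, and ATP synthase uses the returning protons to make ATP. Most subunits are encoded in the nucleus. The mature egg depends on its mitochondria for ATP and passes them to the embryo. In growing oocytes, methylation is laid down mainly over transcribed gene bodies, while CpG-rich promoters as a rule stay unmethylated.

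The deposited tables give 1 pooled value per window and group, so no spread between libraries is known and no p-value is given. The level is the share of CpG calls (a read's base at a CpG) that were methylated, in percent, over a 2000 bp window. Differences are in percentage points. Intervals are 95% intervals (Wilson for a level, Newcombe for a difference) and cover counting error only, since PCR copies and neighbouring CpGs of a read are not independent. Where no call was methylated, the level said to be allowed is 3 calls over all calls, which lies below the Wilson upper bound. Over the 92 members the median window held 195 calls in young WT, 333.5 in old WT and 115.5 in Tet2KO. As a check of the cell type, promoters of imprinted genes with a maternal methylation mark, which is full in mature oocytes, were at 80% or more in 8, 8 and 7 of 12 measured genes (11 windows, as Peg10 and Sgce share one) of a list of 15. Inpp5f and Slc38a4, of the same list, did not exceed 2.78% in any pool. Windows were chosen by gene start, and whether those of Inpp5f and Slc38a4 cover the marked region was not checked. H19, marked on the paternal allele, was at 4.21%, 1.61% and 2.5%.

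The sequences below show the kinds of promoter among the members, as the 250 bases before the RefSeq start (GRCm38.p6, the assembly behind mm10), 5′ to 3′ on the gene's strand, with each CpG in capitals. The first pair are muscle isoforms of complex IV subunits whose windows were near 90% methylated in both WT pools, and they hold few CpGs: 4 in Cox7a1 and 1 in Cox8b.
Cox7a1: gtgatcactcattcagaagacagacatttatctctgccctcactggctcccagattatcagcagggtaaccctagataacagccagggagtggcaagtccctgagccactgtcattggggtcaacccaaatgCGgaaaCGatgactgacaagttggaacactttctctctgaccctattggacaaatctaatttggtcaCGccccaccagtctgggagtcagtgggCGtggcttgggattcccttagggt
Cox8b: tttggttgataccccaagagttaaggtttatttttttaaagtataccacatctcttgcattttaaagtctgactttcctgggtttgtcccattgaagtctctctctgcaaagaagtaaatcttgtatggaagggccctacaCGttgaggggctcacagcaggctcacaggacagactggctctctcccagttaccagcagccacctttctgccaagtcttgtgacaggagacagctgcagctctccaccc
Cox6b2 and Cox7b2 are testis isoforms of complex IV subunits, of which the first was partly methylated and the second nearly unmethylated. Their sequences hold 8 and 9 CpGs.
Cox6b2: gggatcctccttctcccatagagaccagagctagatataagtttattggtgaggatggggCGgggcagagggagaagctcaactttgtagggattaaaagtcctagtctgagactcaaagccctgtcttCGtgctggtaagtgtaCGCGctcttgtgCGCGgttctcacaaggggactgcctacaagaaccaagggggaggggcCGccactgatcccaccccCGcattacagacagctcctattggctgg
Cox7b2: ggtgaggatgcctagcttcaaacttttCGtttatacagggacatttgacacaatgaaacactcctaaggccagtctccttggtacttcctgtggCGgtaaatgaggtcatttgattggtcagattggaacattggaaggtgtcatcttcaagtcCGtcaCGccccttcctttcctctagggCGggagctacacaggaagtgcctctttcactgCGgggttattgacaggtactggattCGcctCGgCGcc
Cox7a2l (13 CpGs) was methylated in all groups, and Atp5d (11 CpGs), the delta subunit of the F1 part of ATP synthase, in young WT.
Cox7a2l: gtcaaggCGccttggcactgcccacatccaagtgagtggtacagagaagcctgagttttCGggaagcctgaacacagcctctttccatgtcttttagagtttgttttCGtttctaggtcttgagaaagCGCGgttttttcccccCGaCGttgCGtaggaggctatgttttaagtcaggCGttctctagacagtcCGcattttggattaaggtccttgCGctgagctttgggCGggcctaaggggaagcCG
Atp5d: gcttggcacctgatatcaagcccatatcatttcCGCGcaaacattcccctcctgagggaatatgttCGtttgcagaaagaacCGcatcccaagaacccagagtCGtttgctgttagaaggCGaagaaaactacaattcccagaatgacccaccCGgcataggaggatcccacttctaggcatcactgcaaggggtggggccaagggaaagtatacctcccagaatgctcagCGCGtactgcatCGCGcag
Sdha, the flavoprotein of complex II, and Ndufab1, the acyl carrier protein of complex I, are CpG-rich, with 21 and 22 CpGs. Both were nearly unmethylated, below the median of the members in every pool.
Sdha: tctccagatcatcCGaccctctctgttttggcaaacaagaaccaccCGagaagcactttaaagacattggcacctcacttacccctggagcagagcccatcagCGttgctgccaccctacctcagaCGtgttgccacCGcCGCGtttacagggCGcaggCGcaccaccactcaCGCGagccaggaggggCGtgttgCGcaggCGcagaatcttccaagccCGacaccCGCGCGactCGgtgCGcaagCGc
Ndufab1: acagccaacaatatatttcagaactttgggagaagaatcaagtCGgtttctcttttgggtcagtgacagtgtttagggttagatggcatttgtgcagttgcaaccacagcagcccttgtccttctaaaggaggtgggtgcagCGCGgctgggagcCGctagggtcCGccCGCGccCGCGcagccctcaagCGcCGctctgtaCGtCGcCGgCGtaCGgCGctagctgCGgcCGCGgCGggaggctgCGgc
They lie at chr7:30183921-30184170 (Cox7a1), chr7:140900447-140900696 (Cox8b), chr7:4753095-4753344 (Cox6b2), chr5:71548206-71548455 (Cox7b2), chr17:83514334-83514583 (Cox7a2l), chr10:80142065-80142314 (Atp5d), chr13:74350241-74350490 (Sdha) and chr7:122101849-122102098 (Ndufab1). Cox7a1 and Atp5d are on the plus strand and the other sequences on the minus strand.

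Most oxidative phosphorylation promoters carried little methylation in every group. Complex IV held 4 of the 8 members at 20% or more in young WT, 4 of 4 in old WT and 3 of 4 in Tet2KO. The median level was 4.57% in young WT, 2.92% in old WT and 2.53% in Tet2KO. The same medians over 15919 protein-coding genes, 1 window per gene, were 2.5%, 2.21% and 1.72%. At 20% or more lay 8, 4 and 4 of the 92 members (8.70%, 4.35% and 4.35%), against 11.4%, 10.2% and 10.6% of all genes. Under 5% lay 49, 62 and 62 members, or 53.3%, 67.4% and 67.4%, against 66.4%, 73.2% and 73.7% of all genes. The band from 5% to under 20% held 35, 26 and 26 members, or 38.0%, 28.3% and 28.3%, against 22.2%, 16.6% and 15.7% of all genes. Members at 80% or more numbered 2, 2 and 1. No methylated call was seen in 4, 4 and 18 members (4.35%, 4.35% and 19.6%, against 12.5%, 5.23% and 22.1% of all genes), and Tet2KO is the pool with the fewest calls. With pooled values these differences between the members and genes at large were not tested.

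**Figure D1:**
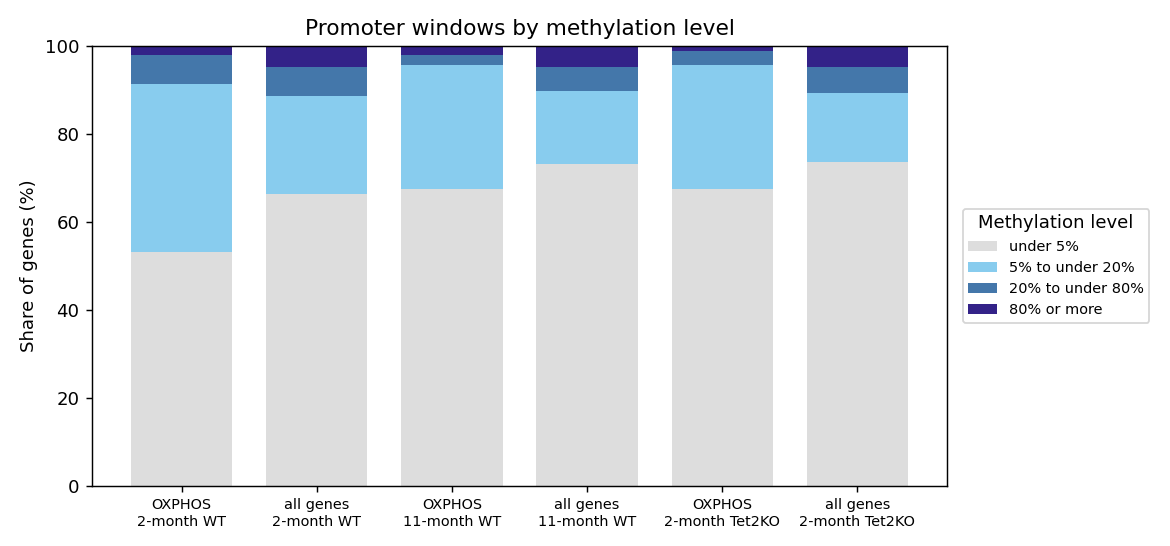
Share of genes (vertical axis, percent) in 4 bands of methylation level, for the 92 oxidative phosphorylation genes and for 15919 protein-coding genes in each group (2-month WT is young WT, 11-month is old WT), 1 window per gene. The light blue band of 5% to under 20% is wider for the members (38.0%, 28.3% and 28.3%) than for all genes (22.2%, 16.6% and 15.7%).

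**Figure D2:**
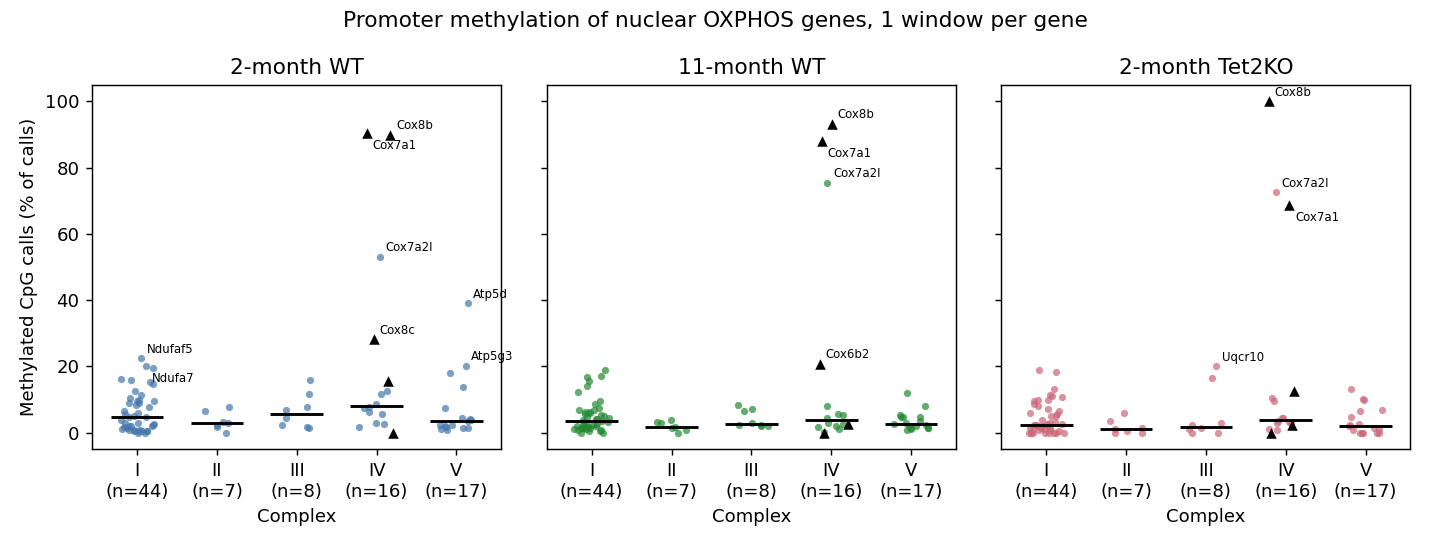
Methylation level (vertical axis, percent of calls) of each member by complex (horizontal axis, with the number of genes) in the 3 groups; bars are medians, triangles are tissue-restricted isoforms, and names mark members at 20% or more. Complex IV holds the members above 50% in every panel.

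Complex I was low throughout. Its 44 members ranged from 0% to 22.4% in young WT, from 0% to 19.05% in old WT and from 0% to 19% in Tet2KO, with medians of 4.74%, 3.63% and 2.42%. The 6 measured core subunits, which carry the flavin and iron-sulfur clusters or the quinone site, had medians of 1.55%, 4.58% and 5.91%. Ndufv1, which binds NADH and the flavin, was at 0.699% of 286 calls, 3.48% of 345 and 9.80% of 102 in young WT, old WT and Tet2KO. Ndufs8, an iron-sulfur subunit, had the highest core values, on few calls in Tet2KO, at 15.4% of 65 calls, 17.1% of 269 and 13.0% of 23. Ndufs1, the largest subunit, was at 8.47%, 5.69% and 9.62%, while Ndufs7, Ndufs3 and Ndufv2 stayed at or under 6.88% in every group. The core medians run from young WT up to Tet2KO, opposite to those of complex I as a whole, but they rest on 6 genes. Of these genes, only Ndufv1 rose in that order. Ndufs3, Ndufs7 and Ndufs8 were highest in old WT, Ndufv2 was highest in young WT, and Ndufs1 was lowest in old WT. Over all calls of the 6 genes the level was 2.45%, 4.85% and 4.35%. The rise of the core medians therefore does not describe the set.

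The 30 accessory subunits of complex I had medians of 5.83%, 3.96% and 2.56%. Ndufc1 was similar in all groups, at 19.7%, 16.8% and 18.4%. Ndufa7 was at 20.1% of 194 calls in young WT, 19.05% of 210 in old WT and 5.91% of 203 in Tet2KO. Ndufa12, of the NADH-oxidising arm, was likewise at 14.6% and 15.7% in WT and at 1.98% in Tet2KO. In both, Tet2KO was the low pool: its difference from young WT was -14.2 points (interval -20.9 to -7.68) at Ndufa7 and -12.6 (-19.6 to -5.62) at Ndufa12. Other accessory genes set young WT apart. Ndufa13, also known as GRIM-19, was at 15.9% of 906 calls in young WT, 0.942% of 1274 in old WT and 0.36% of 278 in Tet2KO. Ndufa6 was at 16.3%, 6.36% and 3.09%, and the X-linked Ndufb11 at 12.7%, 1.36% and 2.20%. In a smaller number Tet2KO was the highest, as at Ndufb9, with 9.65% of 228 calls, 6.74% of 371 and 19% of 100. Its deposited fraction, the mean over CpG positions, was 13.4%, 19.6% and 23.8%, so the size of that difference depends on the measure. Ndufa3 was at 7.69%, 14.0% and 5.63%, and the intervals of all 3 differences included 0. Ndufb10 was at 10.3%, 2.30% and 0%, but at 26.8%, 2.82% and 0% by the deposited fraction. Ndufa4, named for complex I but found in complex IV, was at 0.493%, 9.67% and 5.13%. By its name it was counted here with the accessory subunits of complex I, not with complex IV.

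The 8 assembly factors of complex I had medians of 2.44%, 2.43% and 2.42%. Ndufaf3, which acts early in assembly, was at 11.3% of 497 calls in young WT, 1.47% of 545 in old WT and 1.33% of 450 in Tet2KO. Ndufaf5, which modifies Ndufs7, was the highest complex I member in young WT, at 22.4% of 107 calls, against 12.2% of 238 and 11.1% of 153. A second window for Ndufaf5, displaced by 84 bp, was at 10.8% of 93 calls in young WT, 10.0% of 229 in old WT and 8.11% of 148 in Tet2KO. In young WT the windows differed by a net 14 calls at 2 CpG positions, and the net number of methylated calls was also 14. By the deposited fraction the levels of Ndufaf5 were 12.3%, 11.9% and 17.3%. Ndufaf4 and Ndufaf6 lay at or under 2.22% in every group. Ndufaf1 was at 0% of 14 calls, which allows up to 21.4%, at 0.571% of 175 and at 2.70% of 37.

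Complex II had the lowest medians of the 5 complexes in young WT, old WT and Tet2KO, at 2.88%, 1.83% and 1%. Its highest values were 7.81%, 3.89% and 5.84%. Sdha was at 0% of 123 calls among the young WT pool, which allows a level of up to 2.44%, and at 1.53% and 0.472% in the other groups. Sdhb, the iron-sulfur subunit, was at 6.40%, 3.14% and 5.84%. Sdhc and Sdhd, the membrane anchors, were at or under 3.89%. Sdhaf2, which serves the attachment of flavin to Sdha, was at 7.81% of 320 calls, 1.83% of 818 and 3.57% of 224. All 7 genes stood under 5% in old WT.

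Complex III had medians of 5.61%, 2.58% and 1.82%. Uqcrfs1, the Rieske iron-sulfur protein, was at 11.6%, 2.85% and 2.31%, while the core proteins Uqcrc1 and Uqcrc2 were at 6.76%, 6.55% and 2.92% and at 2.17%, 1.88% and 1.22%. Uqcrq, a small subunit, was at 15.8% of 292 calls in young WT, 2.04% of 540 in old WT and 0% of 224 in Tet2KO, where the count of 0 allows up to 1.34%. The centre of the Uqcrq window also lies within 200 bp of an annotated end of Gdf9, an oocyte growth factor gene, so the value belongs to both genes. Uqcr10 and Uqcr11, small subunits too, went the other way. Uqcr10 was at 7.69% of 78 calls, 8.43% of 178 and 20% of 65, and Uqcr11 at 4.45% of 247, 7.08% of 325 and 16.5% of 133. By the deposited fraction Uqcr10 was at 13.6%, 8.66% and 18.2% and Uqcr11 at 10.2%, 9.91% and 12.1%, so the Tet2KO minus young WT difference falls to 4.55 and 1.91 points. Uqcrh, the hinge protein, whose window centre lay 199 bp from its start and so just inside the limit, was at 1.48%, 2.21% and 1.33%.

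The genes above 50% in any group were all of complex IV: 3 muscle isoforms and Cox7a2l. Cox7a1, the heart and muscle form of subunit 7a (chromosome 7, 30183194 to 30185193), was at 90.6% of 64 calls in young WT (interval 81.0 to 95.6), 88.2% of 93 in old WT (80.1 to 93.3) and 68.8% of 16 in Tet2KO (44.4 to 85.8). Cox8b, the heart and muscle form of subunit 8 (chromosome 7, 140899447 to 140901446), was at 90% of 30 calls, 93.2% of 74 and 100% of 47. Cox6a2, the heart and muscle form of subunit 6a (chromosome 7, 128205388 to 128207387), was at 95% of 40 calls in young WT and 90.2% of 51 in old WT and had no listed window in Tet2KO. The ubiquitous counterparts of these 3 were low. Cox7a2 was at 11.8%, 2.51% and 1.11%, Cox8a at 8.63%, 5.70% and 4.55%, and Cox6a1 at 5.64%, 1.85% and 3.41%. In both WT pools the intervals of each muscle form lie above those of its counterpart.

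The testis isoforms of complex IV differed from one another. Cox6b2 (chromosome 7, 4752095 to 4754094) was at 15.5% of 97 calls, 20.8% of 274 and 12.5% of 96, with intervals of the differences that included 0, while its ubiquitous counterpart Cox6b1 was at 2.73%, 0.952% and 10.4%. Cox7b2 was at 0% of 24 calls, 2.70% of 37 and 2.44% of 41; the young WT count of 0 allows up to 12.5%. Cox8c (chromosome 12, 102898306 to 102900305) was at 28.1% of 32 calls in young WT (15.6 to 45.4), 0% of 113 in old WT and 0% of 15 in Tet2KO. These counts of 0 allow up to 2.65% and 20%, so Tet2KO holds little information on Cox8c. Over the 5 tissue-restricted isoforms with all 3 values, out of 8 in the list, medians were 28.1%, 20.8% and 12.5%. These medians are single genes, Cox8c in young WT and Cox6b2 in the other pools, so their fall does not describe the set. From young to old WT, 3 of the 5 were higher and 2 lower, with a median difference of 2.70 points. The 10 other complex IV subunits had medians of 6.81%, 2.72% and 3.26% and reached 12.5%, 8.05% and 10.4% at most. Cox4i1, the ubiquitous form of subunit 4 and the complex IV member with the most calls in its thinnest pool, was at 2.90%, 2.93% and 3.12%. Cox5a was at 7.69% of 611 calls, 0.329% of 1217 and 0.858% of 233.

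Cox7a2l, which helps join complexes III and IV into supercomplexes, was the only ubiquitous gene among the members above 50%. Its window (chromosome 17, 83513334 to 83515333) was at 53.1% of 130 calls in young WT (44.5 to 61.4), 75.5% of 196 in old WT (69.0 to 81.0) and 72.6% of 62 in Tet2KO (60.4 to 82.1). It covered up to 60 CpG positions, and the deposited fractions were 49.1%, 67.9% and 75%. Its paralogue Cox7a2 was low, as given above.

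**Figure D3:**
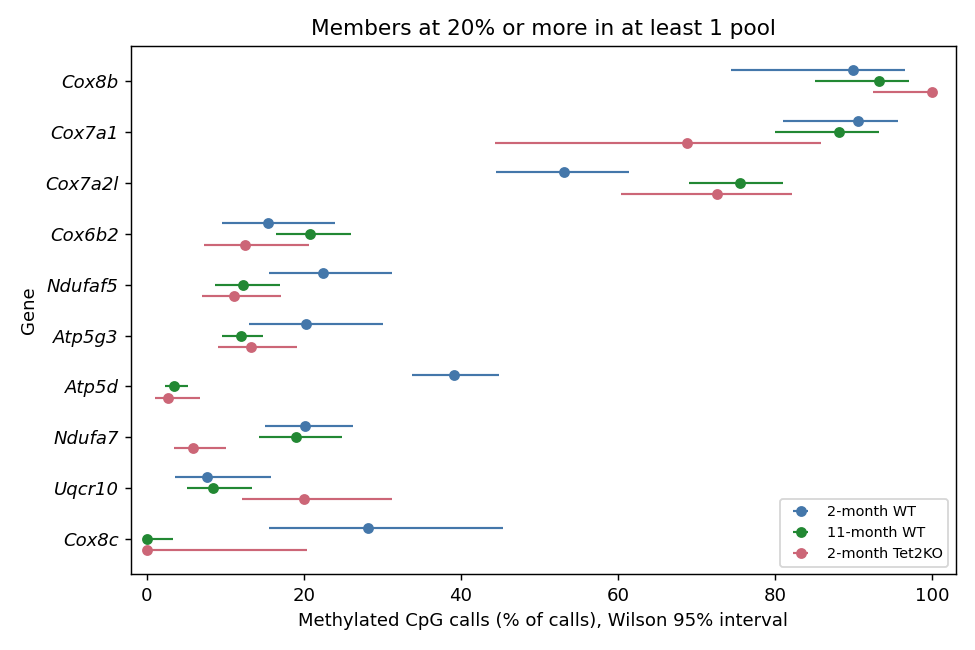
Methylation level (horizontal axis, percent of calls) with Wilson 95% intervals of the 10 members at 20% or more in at least 1 group; colours mark the 3 groups. Cox8b, Cox7a1 and Cox7a2l are high in all groups, while Atp5d lies at 39.1% in young WT against 3.49% and 2.72%; the Tet2KO interval of Cox8c is wide.

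ATP synthase had medians of 3.48%, 2.68% and 1.90%. Its 5 F1 subunits include Atp5d, which stood out. The Atp5d window (chromosome 10, 80141315 to 80143314) was at 39.1% of 294 calls in young WT (33.7 to 44.8), 3.49% of 631 in old WT (2.31 to 5.22) and 2.72% of 147 in Tet2KO (1.06 to 6.79). By the deposited fraction it was at 27.3%, 3.22% and 2.36%. The catalytic beta subunit gene Atp5b was at 13.9%, 5.43% and 9.76%, the alpha subunit gene Atp5a1 at 2.27%, 2.19% and 10.1%, and Atp5c1 (gamma) and Atp5e (epsilon) were at or under 4.22%. The 3 genes of the proton-carrying c ring differed: Atp5g3 was at 20.2% of 84 calls, 11.9% of 612 and 13.3% of 173, whereas Atp5g1 and Atp5g2 did not exceed 4.38%. Atp5mpl, a small membrane-domain subunit, was at 18.1% of 127 calls, 2% of 300 and 0% of 60, which allows up to 5%. Atp5pb, of the peripheral stalk, was at 7.34%, 7.91% and 4.68%.

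The first comparison, of old with young WT, asks about maternal age. The clearest member was Atp5d, lower at 11 months (-35.6 points, interval -41.4 to -30.0). Cox8c was lower too (-28.1, interval -45.4 to -15.1), and Cox7a2l was higher (22.4, interval 11.9 to 32.6). By the deposited fraction these differences were -24.1, -34.6 and 18.9 points, so Cox7a2l then falls short of 20. By the measure of 20 points, 1 of 92 members (1.09%) was higher and 2 (2.17%) were lower, against a background of 1.78% and 2.4% of 15919 protein-coding genes. These shares are near the background. At 10 points, 1 was higher (1.09%, background 4.29%) and 7 were lower (7.61%, background 7.05%). Smaller differences were more frequent: the interval excluded 0 at 9 members that were higher (9.78%, background 9.83%) and 25 that were lower (27.2%, background 18.7%). The lower ones included Atp5mpl (-16.1 points), Ndufa13 (-15.0), Uqcrq (-13.7), Ndufb11 (-11.3), Ndufaf5 (-10.2), Ndufa6 (-9.99) and Ndufaf3 (-9.80). By the deposited fraction the difference at Ndufaf5 was only -0.428 points. The median number of calls was 195, 333.5 and 115.5 per member and 187, 350 and 113 over all genes. The starting level differed, with a young WT median of 4.57% in the members and 2.5% in all genes. No methylated call was seen in young WT in 4.35% of members, against 12.5% of all genes. Whether depth or starting level bears on the shares with an interval excluding 0 was not tested. The median difference was -0.709 points over the members, or -0.0125 by the deposited fraction, and 0 over all genes. It was -0.767 in complex I, -1.58 in complex II, 0.188 in complex III, -2.12 in complex IV and -0.445 in complex V.

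The second, of Tet2KO with young WT, asks about loss of Tet2. Methylation around a promoter start does not show whether Tet2 was deleted, so the genotype labels were not checked here. The same young WT pool serves in both comparisons, so the values of one are not independent of the other. Atp5d differed by -36.4 points (interval -42.3 to -29.6), Cox8c by -28.1 (-45.4 to -4.18) and Cox7a1 by -21.9 (-46.7 to -2.27). Cox7a2l was higher by 19.5 (4.73 to 32.3), just under the measure of 20 points, and by 25.9 by the deposited fraction. Thus 0 of 92 members were higher by 20 points or more, against a background of 2.2%, and 3 (3.26%) were lower, against 2.76%. By that fraction Cox7a1 differed by -6.41 points. Cox8c and Cox7a1 rest on 15 and 16 Tet2KO calls, and with at least 50 calls in every pool 1 member, Atp5d, was lower. At 10 points, 4 were higher (4.35%, background 5.28%) and 13 lower (14.1%, background 8.13%). The interval excluded 0 at 12 members that were higher (13.0%, background 7.65%) and 21 that were lower (22.8%, background 14.9%). Among the higher were Uqcr10 (12.3 points), Uqcr11 (12.1), Cox8b (10.0, with a lower bound of 0.00694), Ndufb9 (9.35), Atp5a1 (7.80) and Cox6b1 (7.72). Among the lower were Atp5mpl (-18.1), Uqcrq (-15.8), Ndufa13 (-15.5), Ndufa7 (-14.2), Ndufa6 (-13.2) and Ndufa12 (-12.6). The median difference was -1.28 points over the members and -0.371 over all genes.

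**Figure D4:**
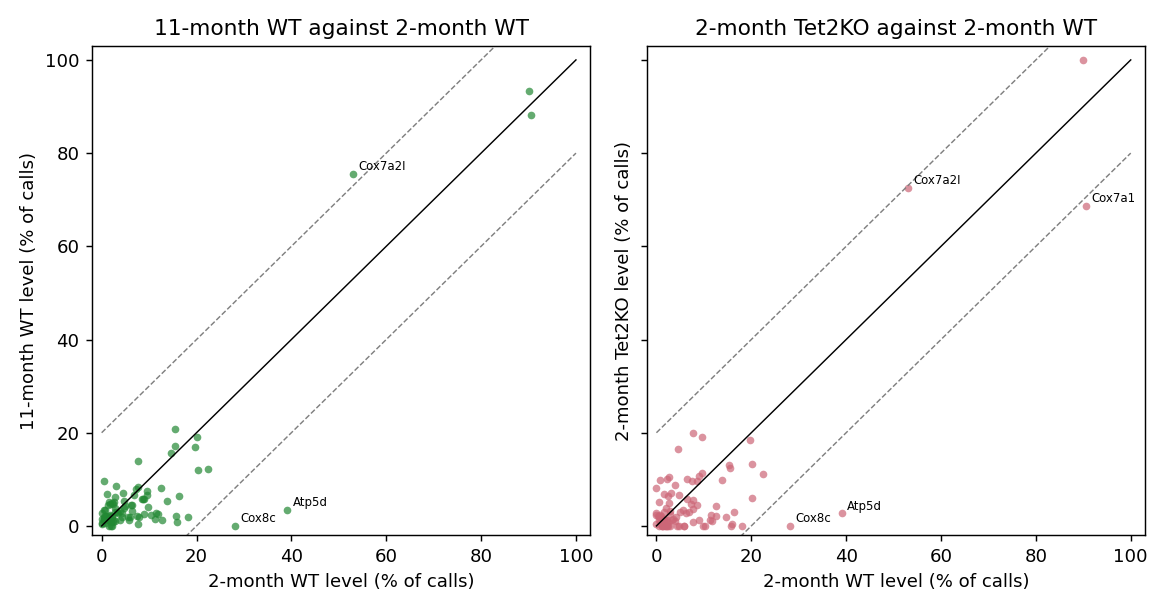
Level of each of the 92 members in old WT (left) and Tet2KO (right) against its level in young WT, in percent of calls; the solid line marks equal levels, dashed lines mark 20 points, and names mark the most distant members. Most members sit in the lower left corner, and Atp5d lies at 39.1% in young WT against 3.49% and 2.72%.

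Tet2KO and old WT differ in both age and genotype, and by the measure of 20 points 0 members differed in either direction, against backgrounds of 1.53% higher and 1.24% lower in Tet2KO. The most distant members were Cox7a1 (-19.4 points, interval -44.3 to -0.504), Ndufa12 (-13.7), Ndufa7 (-13.1), Ndufb9 (12.3), Uqcr10 (11.6), Cox6b1 (9.50) and Uqcr11 (9.46). Ndufa3, Cox6b2 and Atp5a1 followed with -8.32, -8.30 and 7.88 points, of which the interval excluded 0 at Atp5a1. At 10 points, 2 were higher (2.17%, background 4.38%) and 3 lower (3.26%, background 4.15%). The interval excluded 0 at 12 members higher in Tet2KO (13.0%, background 8.34%) and at 9 lower (9.78%, background 8.25%). The median difference was -0.781 points, against -0.402 over all genes.

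The members were then compared for features of their promoters. RefSeq promoter sequence (300 bases around the start) was on hand for 79 of the 92 genes and for 13185 of all genes. The median ratio of observed to expected CpG was 0.829 in the members and 0.714 in all genes, and it was 0.6 or more in 66 members (83.5%) against 62.7%, with median GC contents of 58.3% and 60%. The 4 tissue-restricted isoforms with sequence were among the 13 members under 0.6, with Cox8b at 0.115, Cox7a1 at 0.333, Cox6b2 at 0.432 and Cox7b2 at 0.564. Other members lay below Cox7b2 too: Ndufc2 (0.482), Ndufb2 (0.520), Ndufb7 (0.521), Ndufs8 (0.532) and Ndufa3 (0.558). Cox7b, a ubiquitous subunit on the X chromosome, had a ratio of 0.368 and was at 12.5% of 32 calls, 8.05% of 87 and 4.35% of 23. Median levels were 7.69%, 5.26% and 5.84% in the 13 members under 0.6. They were 3.86%, 2.85% and 2.26% in the 66 others, a difference that was not tested. Among promoters with a ratio of 0.6 or more, Cox7a2l (0.851) was the 1 member of 66 (1.52%) at 20% or more in every group, against 2.46% of all such promoters.

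**Figure D5:**
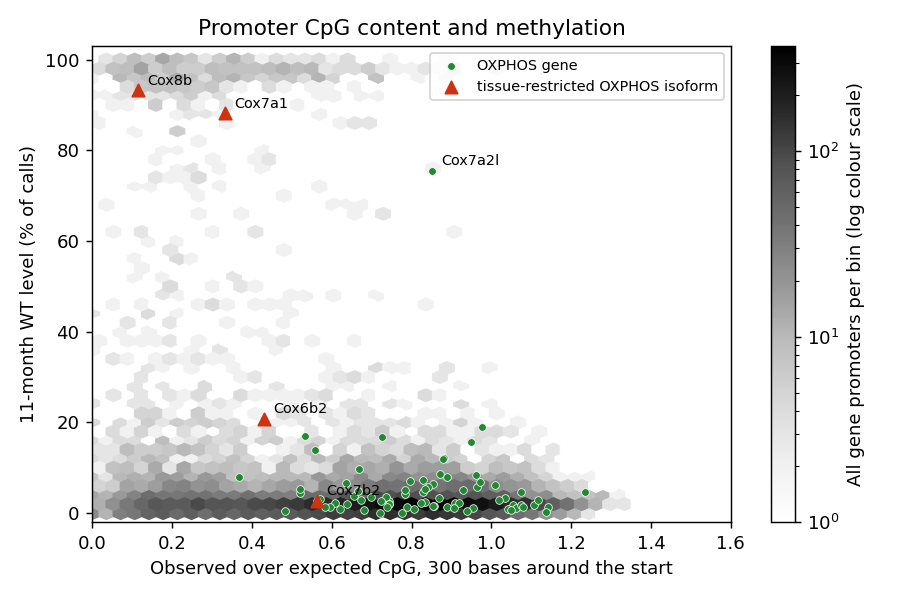
Methylation level in old WT, the deepest pool (vertical axis, percent of calls), against the observed over expected CpG ratio of the 300 bases around the start; grey hexagons are 13185 protein-coding genes, green points are members and red triangles are tissue-restricted isoforms. Cox8b and Cox7a1 sit at the upper left, and Cox7a2l lies alone among the members at the upper right.

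Short motifs of factors known to act on respiratory genes were searched on both strands of the same 300 bases. The NRF1 letters GCATGCGC were found in 12 members (15.2%) against 4.63% of all promoters, the ETS letters CCGGAAG in 21 (26.6%) against 15.1%, the YY1 letters AAGATGG in 12 (15.2%) against 6.70%, and the Sp1 letters GGGCGG in 37 (46.8%) against 59.2%. The ETS and YY1 letters can overlap by 3 bases, which happened in 0 members. The NRF1 letters stand in Ndufa6, Ndufa8, Ndufa11, Ndufaf4, Ndufaf5, Sdhb, Uqcrc1, Uqcr11, Cox6a1, Atp5g2, Atp5k and Atp5l. Median levels of these 12 were 5.05%, 2.56% and 2.61%, and those of the 67 without them were 4.38%, 3.27% and 2.62%. Members with the ETS letters had medians of 3.23%, 2.92% and 2.70%, and the 58 without them 6.61%, 3.30% and 2.38%. For the YY1 letters the medians were 5.41%, 5.22% and 4.23% with and 4.45%, 2.86% and 2.31% without them, and for the Sp1 letters 4.22%, 2.70% and 2.22% with and 4.62%, 3.81% and 3.37% without them. None of these differences was tested. A match of letters does not show binding.

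Many members share their window with a neighbour. For 23 of them the window's centre lay within 200 bp of the start of another protein-coding gene whose strand is known, as with Sdhd and Timm8b, Ndufa7 and Rps28, Ndufaf3 and Dalrd3, and Ndufb11 and Rbm10. Atp5j, a stalk subunit, shares its window with Gabpa, an ETS factor of respiratory genes, and the window was at 3.48%, 2.68% and 1.49%. The median levels were 3.23%, 2.68% and 2.16% in these 23 and 4.88%, 3.14% and 2.72% in the other 69. Over the 53 genes with several shared windows, the largest spread between windows of a gene was 11.7 points in young WT (Ndufaf5), 4.10 in old WT (Ndufs3) and 3.01 in Tet2KO (Atp5j).

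Genes related to the pathway that the prefixes leave out were measured from a list of 55, mainly electron carriers, assembly factors and transcription regulators, of which 51 had values. The list also held Cyc1 and Aox1, and its Gabpa window is also that of the member Atp5j. Their medians were 4.17%, 2.56% and 2.34%. With age 0 were higher by 20 points and 1 was lower (1.961%, background 2.4%). In Tet2KO against young WT 0 were higher and 2 lower (3.92%, background 2.76%). These 20-point shares are near the background. With age the interval excluded 0 at 5 that were higher (9.80%, background 9.83%) and 17 that were lower (33.3%, background 18.7%). In Tet2KO against young WT it did at 7 that were higher (13.7%, background 7.65%) and 13 that were lower (25.5%, background 14.9%). These shares were not tested. Coa3, an assembly factor of complex IV, was at 25.2% of 151 calls, 0.926% of 216 and 1.02% of 197. Pet100, another, was at 41.4% of 58, 24.1% of 203 and 10.8% of 93. Of the cytochrome c genes, the testis form Cyct was at 100% of 16 calls, 98.8% of 83 and 100% of 25, and the somatic form Cycs at 10.0% of 428, 1.10% of 544 and 2.61% of 230. The regulators Nrf1 and Tfam were at 4.66%, 0.582% and 0.588% and at 3.24%, 3.73% and 4.09%.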

How the data were processed

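Low-input bisulfite libraries of MII oocytes were made per the labels' protocols. Trimmomatic, Bismark and mm10 are named in the submitters' processing notes, and how they were run is not given in the sources used here. Per group, the authors deposited 1 table, pooled over its libraries, with whole-number counts of methylated calls per window. Another deposited column holds the coverage, all CpG calls of a window, and a further one the covered CpG positions. The deposited fraction is the authors' mean over covered positions. Listed windows have at least 10 calls and 5 positions. The young WT table breaks off within a line on the X chromosome, so later windows were not analysed here.

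Levels are 100 times methylated calls over all calls. Starts are the 5′ ends of genes and the starts in the RefSeq promoter table (GRCm38.p6); for 13 members without a strand either end of the gene counted. Of several windows of a gene, the one whose thinnest pool held the largest number of calls was used. The foreseen count test across libraries could not be run on pooled values. Intervals were run on simulated calls drawn independently of one another, which is what the intervals assume. That run cannot show how they behave on calls that are not independent. Python 3.11.15, numpy 2.4.6 and pandas 2.3.3 were used. Members and lists were chosen with earlier results of these data known. Named members were those at 20% or more in a pool, 20 points or more apart, among the 10 most distant in a comparison, tissue-restricted, or with the most calls in a complex; other members named were added after their values were seen. Alternatives were the deposited fraction, at least 50 calls, all windows or their mean per gene, a distance of 50 bp, removal of windows with over 5 times the median calls per position, 10 points, and 20 points with an interval excluding 0.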

Additional observations from a re-analysis of the deposited data

How the results depend on the processing

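No paired analysis was possible because the tables hold pooled values per group, and no library could be left out. Over the alternatives run, median levels ranged from 4.11% to 6.40%, 2.86% to 4.28% and 2.53% to 3.32% in young WT, old WT and Tet2KO, and the median differences stayed below 0. Counts of members 20 points apart are small and moved. By the deposited fraction 0 members were higher with age and 4 lower (Atp5d, Cox8c, Atp5mpl and Ndufb10), and 1 was higher in Tet2KO than in young WT (Cox7a2l). With at least 50 calls in every pool, which leaves 81 genes, 1 was lower with age and 1 in Tet2KO. Over all 175 windows, 5 were lower in Tet2KO than in young WT and 1 (of Cox7a1) than in old WT; with the mean over windows of a gene that last number was also 1. At 10 points, 1 was higher and 7 lower with age, 4 higher and 13 lower in Tet2KO against young WT, and 2 higher and 3 lower against old WT, beside the shares of all genes given above. No difference past 20 points changed its sign. Below that, 15 of the 81 differences of named members did by the deposited fraction, among them Ndufaf5 (4.97 points in Tet2KO against young WT), Uqcr10 (-4.97 with age), Ndufb9 (6.23 with age) and Cox7a2l (7.08 in Tet2KO against old WT). Atp5d by the deposited fraction was at -24.1 points for age and -24.9 for Tet2KO. By that fraction 12 of these 81 differences left their counting interval; the minimum of 50 calls and the limit on calls per position change no single value, so they say nothing about stability. Depth limits Ndufaf1, Cox8c, Cox7a1, Ndufs8, Cox7b and Cox7b2, with 14, 15, 16, 23, 23 and 24 calls in their thinnest pool.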
